A study of Mus musculus with 8 samples.

Results

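The heat shock proteins and DNAJ co-chaperones of mouse white adipocytes were measured by RNA-seq as 83 genes among the 30387 genes of the deposited table. The members were chosen by symbol, as protein-coding genes of the Hspa, Hspb, Hspd, Hspe, Hsph, Hsp90, Hsf, Dnaja, Dnajb and Dnajc series and Bag1 to Bag6. The ER chaperones Hspa5, Hsp90b1 and Dnajb9 were left out by name, 7 processed pseudogenes with matching symbols were left out by their biotype, and the rule itself reads symbols and biotypes only. Roles were read from the symbols. The members comprised 14 genes of the HSP70 and HSP110 families, 2 HSP90 genes and 7 genes named as small heat shock proteins, with Hspb11 among them. Further members were the HSP60 and HSP10 genes, 6 heat shock factor genes with Hsf2bp among them, and 2 HSP-binding partner proteins. The others were 6 BAG co-chaperones and 4 DNAJA, 12 DNAJB and 28 DNAJC genes. Of the 83, 79 were tested because they averaged 5 or more normalized counts. Dnajb8, Dnajc22, Dnajc5b and Dnajc5g stayed below this limit, with values from 0 to 9, and were not tested.

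HSP70 chaperones bind unfolded stretches of other proteins and let them go in a cycle driven by ATP. DNAJ proteins deliver the clients and trigger ATP hydrolysis through their J-domain, while HSP110 and BAG proteins promote nucleotide exchange. Small heat shock proteins hold unfolded proteins without ATP, HSP90 matures kinases and steroid receptors, HSP60 with HSP10 folds proteins in the mitochondrial matrix, and HSF1 switches on the heat-inducible genes among them when unfolded proteins accumulate.

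Adipocytes came from epididymal fat of Ad-Yap/Taz-KO mice (KO), which carry floxed Yap and Taz alleles (Yap fl/fl and Taz fl/fl) and express Cre recombinase under the adiponectin promoter (Adipoq-Cre), and of wild-type littermates (WT). Mice of both genotypes received standard chow (SD) or a high-fat diet (HFD) for 4 weeks, with 2 mice and 2 libraries per group in 4 groups. Which mouse gave which library was not given in the sources used here. The diets began at an age of 5 weeks by the series' description, and the study's methods give a later age. P-values measure the spread between these libraries. The deposited normalized counts rested on 14.0 to 22.3 M reads counted on genes per library.

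The libraries matched their labels for the deleted genes, with limits. Wwtr1, which encodes TAZ, was lower in KO adipocytes on SD (log2 fold change -1.24, limma adjusted p = 0.000969) and on HFD (-1.56, adjusted p = 3.11e-05). Yap1 was lower on SD (-0.71, adjusted p = 0.0238), and its change on HFD did not pass (-0.42, adjusted p = 0.0591). Adipocyte markers were abundant in every library, with sums over 10 genes from 95513 to 384146 normalized counts, and their lowest sum was that of the 2nd KO library on HFD. Macrophage markers, by contrast, summed to 2609 to 5760 in the 4 WT libraries and to 30609 to 66439 in the 4 KO libraries, and all 12 tested markers were higher in KO on both diets. In such bulk samples, fewer cells of a type and less RNA per cell cannot be told apart. The 2 WT libraries on HFD differed far less from each other than the libraries of other groups: over genes with 1000 to 5000 reads, the mean squared difference was 5.87 times the Poisson expectation for them and 27.8, 58.0 and 72.0 times for the others. Whether these 2 libraries came from separate mice was not tested. Their values are therefore given separately, and the number of members called in each comparison with calls is also given with them averaged, here called WT HFD as 1 sample.

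The chaperones of the unstressed cell led the levels. Per kilobase of exon, the mean over 8 libraries was highest for Hsp90ab1, the constitutive cytosolic HSP90, at 5252 normalized counts, followed by Hspa8, the constitutive cytosolic HSP70, at 3361, and Hspa9, the mitochondrial HSP70, at 1737. Bag3, which joins HSP70 to small heat shock proteins in selective autophagy, reached 1665, Bag1, a nucleotide exchange factor, 1459, and Hspb8, the small heat shock partner of BAG3, 1254. In normalized counts, 17 of the 83 members exceeded 1000 in every library. Together the members made up 0.521% to 0.650% of all normalized counts in a library.

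KO adipocytes on HFD were compared with WT adipocytes on HFD to ask how the chaperones differ when YAP and TAZ are absent during weight gain. Of the 79 members tested, 20 fell and 3 rose, where a call needed an adjusted p no higher than 0.05 and a log2 fold change of 0.59 or more, up or down. Over all 18800 genes tested, 15.1% were called lower and 17.1% higher (32.2% in all), against 25.3% and 3.8% of the members. For genes averaging 50 or more, tested alone, 22.8% of 12093 were lower and 19.1% higher, against 31.8% and 1.52% of 66 members. Among members with a mean of at least 50, the largest falls were those of Hspb7, Hspa12a and Hspb8, while neither HSP90 gene was called.

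Hspb7, a small heat shock protein best known from heart and skeletal muscle (chr4:141420779-141425311, GRCm38), showed the widest difference. Its normalized counts were 1129 and 1154 in WT on HFD, 150 and 131 in KO on HFD, 75 and 211 in WT on SD, and 130 and 150 in KO on SD. The WT libraries on HFD stood alone, and the 6 other libraries overlapped. The log2 fold change between the genotypes on HFD was -3.02 ± 0.37 (SE; limma adjusted p = 6.51e-05), and it held with WT HFD as 1 sample (adjusted p = 0.00272) and after all libraries were scaled to the same total (-2.63).

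Hspa12a, an atypical member of the HSP70 family (chr19:58795751-58860984, GRCm38), gave 5283 and 4979 in WT on HFD, 1083 and 558 in KO on HFD, 1789 and 2449 in WT on SD, and 941 and 1173 in KO on SD. WT libraries lay above KO libraries on both diets, and the 2 genotypes did not overlap. The difference on HFD was -2.72 ± 0.26 (adjusted p = 8.77e-06, and 0.000604 with WT HFD as 1 sample). On SD it was -0.99 ± 0.26 and only just passed (adjusted p = 0.0488, and 0.114 with WT HFD as 1 sample). Its paralog Hspa12b gave 921 and 955 in WT on HFD against 497 and 550 in KO on HFD, with no overlap. Hspa12b fell by 0.84 on the log2 scale (adjusted p = 0.00294), a call that was lost when libraries were scaled to the same total (adjusted p = 0.0965).

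**Figure D1:**
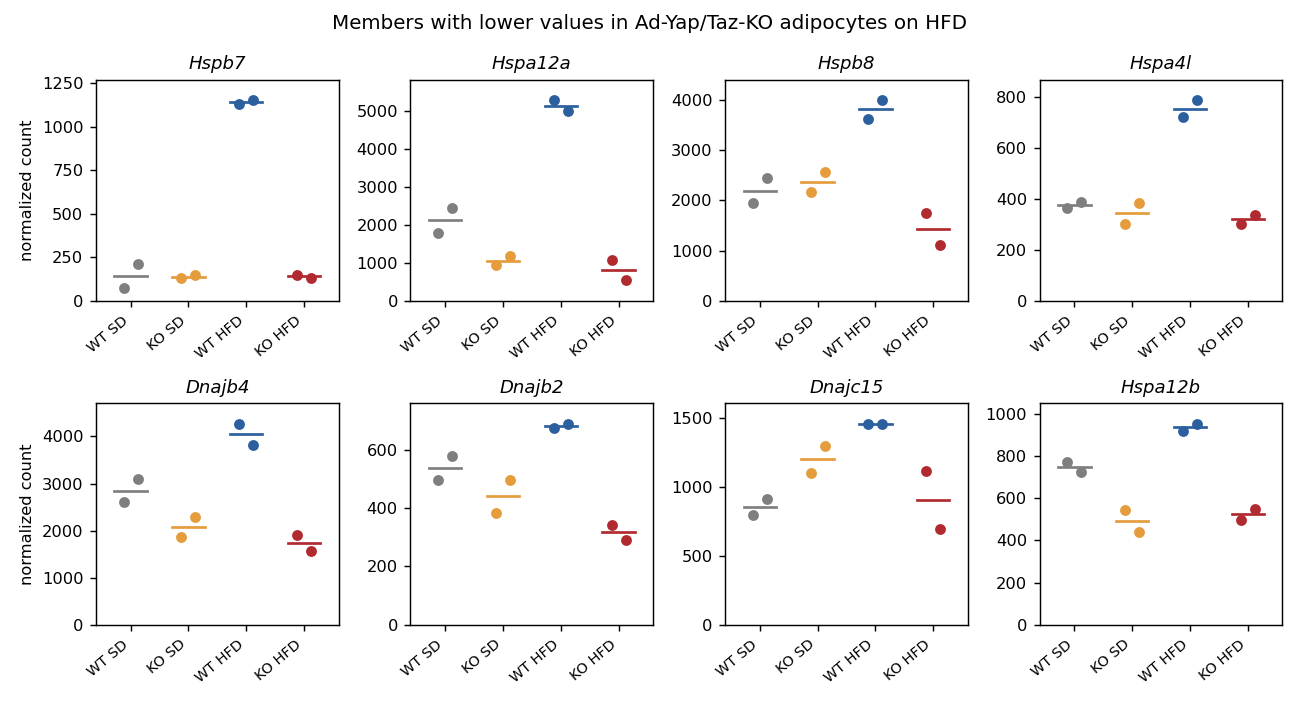
Normalized counts of 8 members that were lower in KO (KO) than in WT adipocytes on HFD. Each point is a library and each line the mean of the 2 libraries of a group; the vertical axis starts at 0. For Hspb7 both WT HFD libraries, 1129 and 1154, stand far above the other 6, which lie between 75 and 211.

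Hspb8 gave 3621 and 3994 in WT on HFD, 1750 and 1103 in KO on HFD, 1946 and 2438 in WT on SD, and 2163 and 2555 in KO on SD. Both WT HFD libraries were above all others, and both KO HFD libraries were below all others. Hspb8 fell by 1.45 ± 0.21 (SE) on HFD (adjusted p = 0.000221, and 0.00643 with WT HFD as 1 sample). Hspb1, the mouse HSP25 that caps and protects actin filaments, gave 551 and 675 in WT against 354 and 325 in KO. Its fall by 0.84 (adjusted p = 0.00928) was lost with WT HFD as 1 sample (adjusted p = 0.062) and on the scaled values (-0.46, adjusted p = 0.103), and 46.4% of its 75-base windows occur also in another gene, the copy Hsp25-ps1. Hspb6, a small heat shock protein of muscle and fat, gave 196 and 193 in WT and 130 and 99 in KO, a difference of -0.77 that did not pass (adjusted p = 0.103).

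Of the DNAJ proteins, 5 of 11 tested in class B, 5 of 25 in class C and none of 4 in class A fell, beside 15.1% of all genes. With the WT HFD libraries averaged, 2 of class B and none of class C were lower, beside 8.14% of all genes. After scaling to the same total 2 and 1 were lower, beside 7.27%. Dnajb4 gave 4275 and 3822 in WT on HFD, 1916 and 1570 in KO on HFD, 2603 and 3096 in WT on SD, and 1857 and 2287 in KO on SD. The genotypes were separated on both diets. Dnajb4 fell by 1.22 ± 0.17 on HFD (adjusted p = 0.000169, and 0.00567 with WT HFD as 1 sample). Dnajb2, which carries ubiquitin-binding motifs and routes HSP70 clients to the proteasome, gave 675 and 689 in WT on HFD and 342 and 290 in KO on HFD. Dnajb2 fell by 1.11 ± 0.20 (adjusted p = 0.00113, and 0.0194 with WT HFD as 1 sample), and on SD its values of 496 and 577 in WT overlapped those of 382 and 497 in KO. Hspa4l, an HSP110-type exchange factor, gave 718 and 787 in WT on HFD and 303 and 336 in KO on HFD, beside 303 to 388 in the SD libraries of both genotypes. WT on HFD again stood alone. Hspa4l fell by 1.23 ± 0.20 (adjusted p = 0.000485, and 0.011 with WT HFD as 1 sample).

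Other calls between the genotypes on HFD were smaller or less stable. Dnajb1, the main DNAJ partner of HSPA1 proteins, gave 3342 and 3273 in WT and 1928 and 2200 in KO, and its fall by 0.68 (adjusted p = 0.00504) missed the threshold with WT HFD as 1 sample (adjusted p = 0.0566), as it did on the scaled values (-0.30, adjusted p = 0.183) and in 3 of 4 fits without 1 library. Dnajc24, which acts in the synthesis of diphthamide on a translation factor, gave 155 and 165 in WT and 68 and 55 in KO (-1.37, adjusted p = 0.00748). Dnajc6, the clathrin-uncoating protein auxilin, gave 308 and 239 in WT and 149 and 77 in KO (-1.33, adjusted p = 0.0414). Neither pair of groups overlapped, and both calls were lost with WT HFD as 1 sample (adjusted p = 0.0535 for Dnajc24). Hspa14, listed under ENSMUSG00000109865, gave 465 and 553 in WT and 290 and 220 in KO (a fall by 1.00, adjusted p = 0.008). A 2nd row of this ribosome-associated HSP70, ENSMUSG00000051396, overlaps it on the same strand, and how reads split between these rows is uncertain. Bag1 gave 2627 and 2378 in WT and 2020 and 1235 in KO (-0.66, adjusted p = 0.0298). The difference of Bag1 was -0.31 without the 2nd KO HFD library and -1.02 without the 1st, and on the scaled values it was -0.28 and not called (adjusted p = 0.251). Bag4, Dnajb12, Dnajb14, Dnajc3, Dnajc14, Dnajc15 and Hsf3 were the other genes called lower. With single libraries left out, the difference ran from -0.94 to -0.45 for Bag4, from -1.07 to -0.39 for Dnajc15 and from -1.80 to -0.86 for Dnajc6. None of these was called on the scaled values (adjusted p = 0.215, 0.159 and 0.114). Of the 3 that rose, Dnajb6, a DNAJ that keeps polyglutamine proteins from aggregating, gave 590 and 634 in KO against 352 and 392 in WT (0.72, adjusted p = 0.0105). Dnajc12 and Hsf2bp were called higher from values of 0 to 44 only.

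Which members were called depended on the libraries and the scaling. With WT HFD as 1 sample, 7 members remained called and all were lower: Hspb7, Hspa12a, Hspb8, Hspa4l, Dnajb4, Dnajb2 and Hspa12b, against 8.14% of all genes called lower and 10.2% called higher in that fit. With all libraries scaled to the same total, 8 were lower and 5 higher, beside 7.27% and 24.6% of all genes, and 11 of the 23 calls were kept: Hspb7, Hspa12a, Hspb8, Hspa4l, Dnajb4, Dnajb2, Dnajc24 and Hsf3 as lower, and Dnajb6, Dnajc12 and Hsf2bp as higher. Without the 2nd KO HFD library 10 members were called (12.7%, beside 19.6% of all genes), and without the 1st or the 2nd WT HFD library 14 and 11 (17.7% and 13.9%, beside 21.6% and 19.3%). The median log2 fold change of the 79 members was -0.38, beside 0.0946 over all genes tested. Scaling to the same total moved the median of all genes by 0.372, to 0.467, and that of the members to 0.006, so their median differed from that of all genes by -0.475 as deposited and by -0.461 after scaling. For genes averaging 50 or more the medians were -0.403 for the members and -0.142 for all, a smaller difference of -0.261. Beside this difference stood the adipocyte markers, of which 9 of 10 were lower in KO on HFD (median -1.54). Their sums were 190080 and 95513 in KO, against 384146 and 375938 in WT. Of the fibroblast and progenitor markers 6 of 8 were higher, as were all 12 macrophage markers tested (median 4.16). The part of these cell types in the members' difference was not tested.

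**Figure D2:**
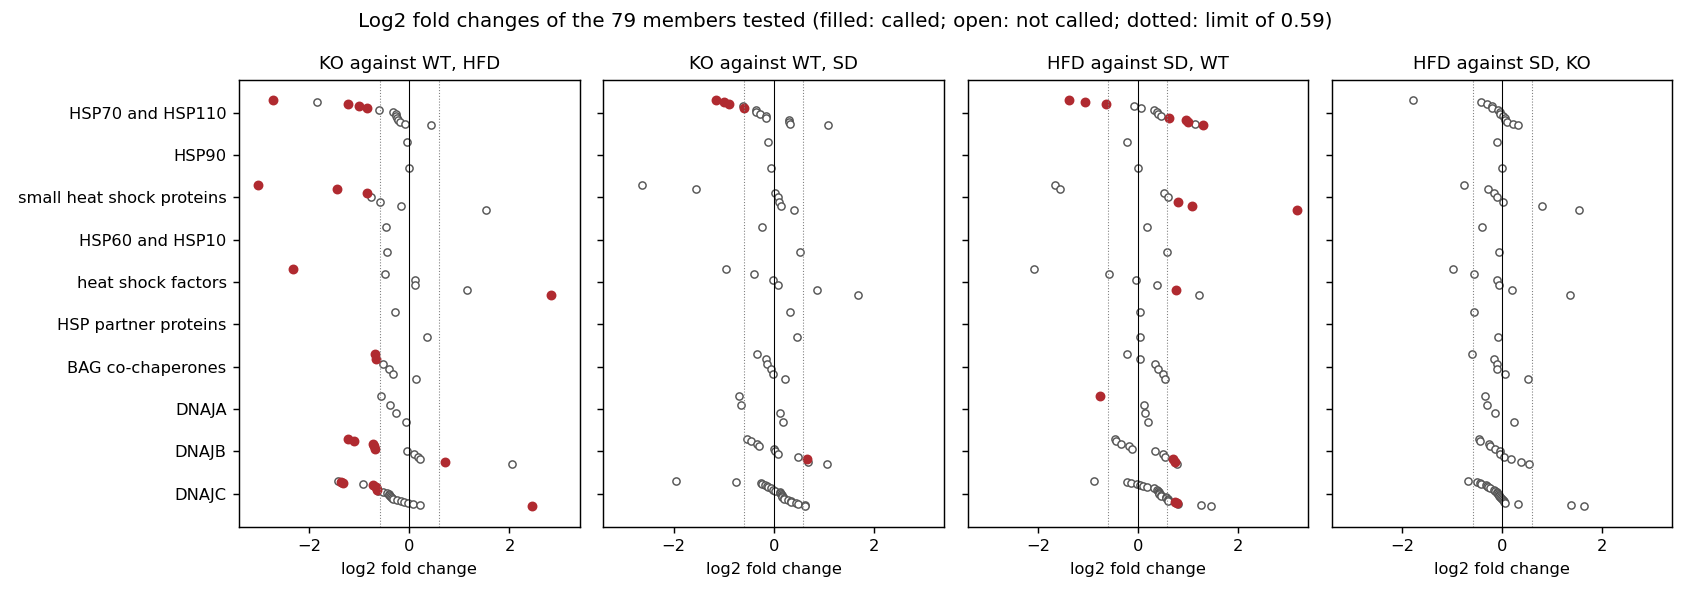
Log2 fold changes of the 79 members tested, by role, in the 4 comparisons between groups. Each circle is a gene; filled circles were called by limma, and dotted lines mark a log2 fold change of 0.59 in either direction. KO against WT on HFD holds 20 filled circles left of 0 and 3 right of it, and HFD against SD in KO holds none.

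The effect of HFD was measured first in WT adipocytes. Here 12 members rose and 4 fell (15.2% and 5.1% of the 79), beside 8.74% of all genes called higher and 9.22% called lower (18.0% in all). For genes averaging 50 or more, 18.2% and 6.06% of 66 members were called, beside 14.0% and 12.3% of all. The 4 that fell were Hspa1a, Hspa1b, Hsph1 and Dnaja1. Beside these counts, 10 of 12 macrophage markers were lower on HFD in WT (median log2 fold change -1.01), as were 4 of 8 fibroblast and progenitor markers (-0.92) and 3 of 8 endothelial markers (-0.74), while 2 of 10 adipocyte markers were higher (0.66). Of these, 1 macrophage and 1 fibroblast or progenitor marker were lower with WT HFD as 1 sample, and the part of these cell types in the members' changes was not tested.

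Hspb7 rose by 3.17 ± 0.37 (SE) on the log2 scale (adjusted p = 0.000316, and 0.0154 with WT HFD as 1 sample). Hspa12a rose by 1.29 (adjusted p = 0.00647) and Hspa4l by 1.00 (adjusted p = 0.00584), both lost with WT HFD as 1 sample (adjusted p = 0.0755 and 0.0721). Hspb8 rose by 0.80 (adjusted p = 0.0195) and Hspb6 by 1.07 (adjusted p = 0.0467). Hsf2, a heat shock factor active in development, gave 338 and 331 on HFD against 211 and 186 on SD in WT, and rose by 0.75 (adjusted p = 0.0364). The ER-membrane DNAJ proteins Dnajb12, at 1770 and 1798 on HFD against 1043 and 1080 on SD, and Dnajb14, at 1848 and 1754 against 1025 and 1197, rose by 0.75 and 0.70 (adjusted p = 0.00834 and 0.015). Dnajc15, a DNAJ of the mitochondrial inner membrane, gave 1453 and 1458 against 796 and 914 and rose by 0.77 (adjusted p = 0.0236). In none of these did the WT libraries of the 2 diets overlap. Dnajc25, Hspa13 and Hspa14 (ENSMUSG00000109865) were the others that rose.

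Hspa1a and Hspa1b, the stress-inducible cytosolic HSP70 genes, took the opposite course. Hspa1a gave 1429 and 1340 in WT on SD, 531 and 538 in WT on HFD, 794 and 695 in KO on SD, and 650 and 795 in KO on HFD. Hspa1b gave 1835 and 1599 in WT on SD, 778 and 873 in WT on HFD, 919 and 642 in KO on SD, and 704 and 857 in KO on HFD. For both genes the WT SD libraries were above all 6 others, and for Hspa1a the WT HFD libraries were the lowest. On HFD, WT adipocytes had lower Hspa1a by 1.37 ± 0.17 (adjusted p = 0.000479, and 0.0178 with WT HFD as 1 sample) and lower Hspa1b by 1.05 ± 0.20 (adjusted p = 0.00443, and 0.0617 with WT HFD as 1 sample).

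Hsph1, the HSP110 that recharges HSP70 with ATP, gave 2284 and 2641 in WT on SD, 1579 and 1577 in WT on HFD, 1613 and 1641 in KO on SD, and 1266 and 1358 in KO on HFD. Dnaja1, a class A DNAJ partner of HSP70, gave 2247 and 2238 in WT on SD, 1408 and 1232 in WT on HFD, 1297 and 1501 in KO on SD, and 877 and 1377 in KO on HFD. Both showed their highest values in the WT SD libraries. Hsph1 fell by 0.64 with HFD in WT (adjusted p = 0.0117) and Dnaja1 by 0.77 (adjusted p = 0.0199), and neither call held with WT HFD as 1 sample (adjusted p = 0.116 and 0.138).

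**Figure D3:**
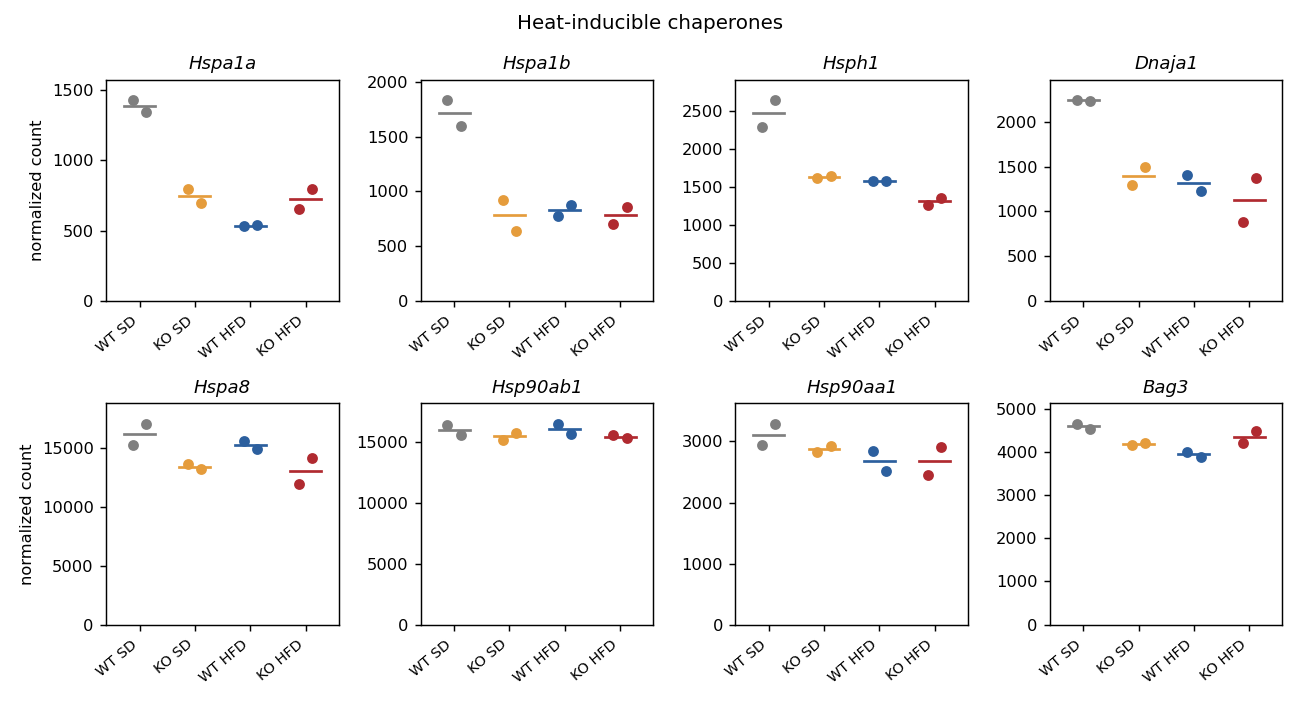
Normalized counts of 8 chaperone genes that heat shock induces or that belong to the abundant cytosolic set. Each point is a library and each line the mean of the 2 libraries of a group; the vertical axis starts at 0. The WT SD libraries are highest for Hspa1a, at 1429 and 1340, and for Hspa1b, Hsph1 and Dnaja1, whereas Hsp90ab1 lies between 15209 and 16531 in every library.

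With WT HFD as 1 sample, 2 members remained called in WT: Hspb7 (higher) and Hspa1a (lower), beside 1.12% of all genes called higher and 1.75% called lower. Scaling to the same total turned the balance, with 2 members higher and 9 lower beside 2.5% and 19.0% of all genes, and moved the member median from 0.388 to -0.026, while the median of all genes moved by -0.398, from -0.078 to -0.476. Relative to all genes the members' median stood 0.466 higher as deposited and 0.45 higher after scaling, and 0.31 higher for genes averaging 50 or more (0.41 against 0.1). Hspb7 and Hspa12a were still higher and Hspa1a, Hspa1b, Hsph1 and Dnaja1 still lower on the scaled values. Leaving out the 1st or 2nd WT HFD library gave 3 and 3 members called (3.8% each, beside 5.59% and 4.19% of all genes), and leaving out the 1st or 2nd WT SD library gave 2 and 8 (2.53% and 10.1%, beside 3.34% and 7.45%).

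**Figure D4:**
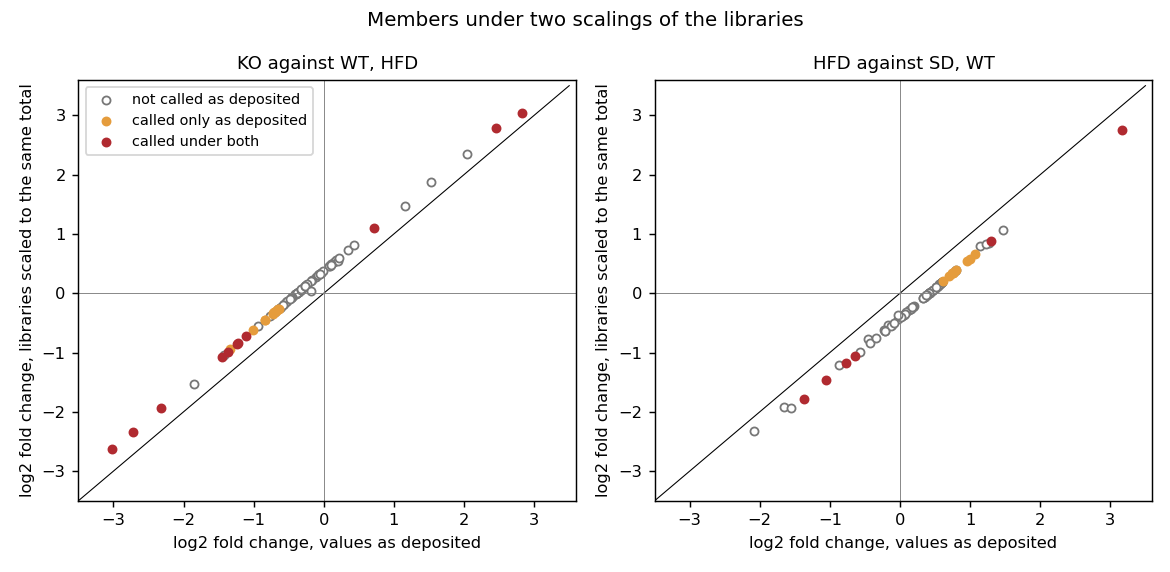
Log2 fold changes of the 79 members from the deposited values (horizontal) and after all libraries were scaled to the same total (vertical), for KO against WT on HFD and for HFD against SD in WT. The diagonal marks equal values; points lie above it by about the 0.372 by which scaling moved the median of all genes on the left, and below it on the right, and filled red points were called under both.

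On SD, KO adipocytes differed from WT in few members: 4 fell and 1 rose (5.1% and 1.3%), beside 1.5% of all genes called lower and 3.21% called higher (4.71% in all). Those that fell were HSP70-type genes, Hspa1b by 1.16 ± 0.20 (SE; adjusted p = 0.00368), Hspa12a as above, Hspa1a by 0.90 ± 0.17 (adjusted p = 0.00815) and Hsph1 by 0.59 ± 0.15 (adjusted p = 0.0367). Dnajb11, an ER co-chaperone of the HSP70 of that compartment, gave 660 and 689 in KO against 420 and 424 in WT, and rose by 0.68 (adjusted p = 0.0444), a call lost on the scaled values (adjusted p = 0.059). For Dnaja1 and Dnajb1 the genotypes did not overlap either, with KO below WT and differences of -0.68 and -0.53 that did not pass (adjusted p = 0.0802 and 0.0814). With WT HFD as 1 sample, which changes only the shared estimate of the spread here, Hspa1a and Hspa1b remained called, beside 0.84% of all genes lower and 2.61% higher. Without the 1st or 2nd WT SD library 0 and 1 members were called, beside 2.63% and 2.03% of all genes, and without the 2nd KO SD library 2, beside 4.02%. All 12 macrophage markers tested were higher in KO on SD (median log2 fold change 2.61), and their part in the members' calls was not tested. This comparison shares its WT SD libraries with the diet comparison in WT, so the fall of Hspa1a, Hspa1b and Hsph1 in both rests on the same 2 libraries.

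A list of 20 immediate-early genes, such as Fos and Jun, which cells switch on within minutes of a stimulus and during tissue dissociation, was high in the same libraries. Its sum was 284933 and 253461 normalized counts in WT on SD, 158540 and 157474 in WT on HFD, 140921 and 142317 in KO on SD and 134002 and 144299 in KO on HFD. Of the 20, 11 were lower in KO than in WT on SD and 14 were lower on HFD than on SD in WT, with none higher, beside 1.5% and 9.22% of all genes called lower. These counts were 10 and 2 with WT HFD as 1 sample, beside 0.84% and 1.75% of all genes called lower. After scaling to the same total they were 13 and 19, beside 285 of 18800 genes and 19.0%. The part of these genes, or of the isolation of the cells, in the values of Hspa1a, Hspa1b, Hsph1 and Dnaja1 was not tested.

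**Figure D5:**
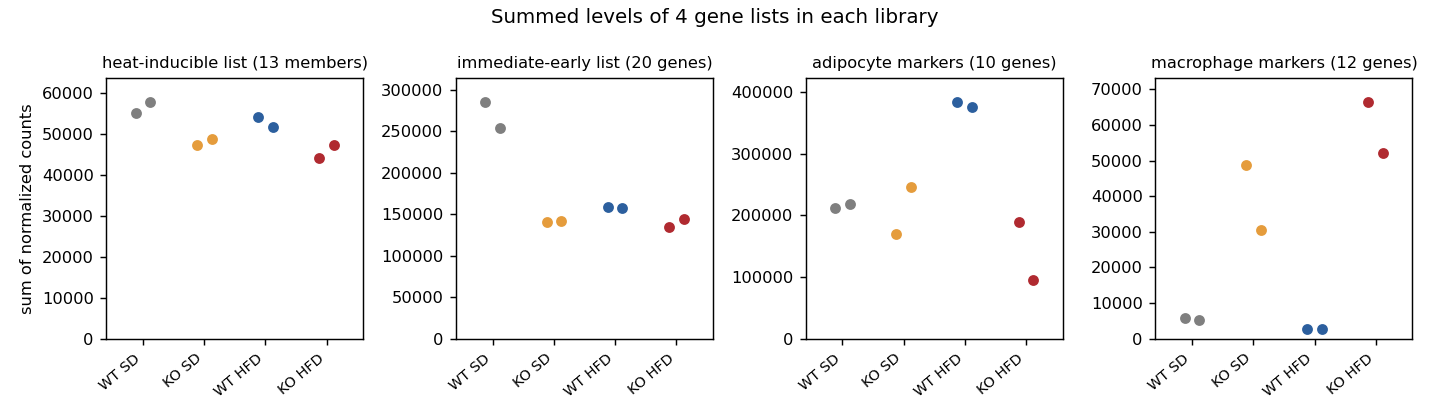
Sums of normalized counts over the 13 heat-inducible members, 20 immediate-early genes, 10 adipocyte markers and 12 macrophage markers. Each point is a library and every vertical axis starts at 0. The immediate-early sum is highest in the 2 WT SD libraries, the adipocyte sum in the 2 WT HFD libraries and the macrophage sum in the 4 KO libraries.

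The promoters of the HSP70 pair are shown because both genes moved together. Hspa1a (chr17:34969190-34972156, minus strand, GRCm38) and Hspa1b (chr17:34956436-34959238, minus strand) lie next to each other, 9951 bases apart, and 61.7% of the 75-base windows of Hspa1a occur also in other genes, mostly in Hspa1b. Reads aligned to several places had been discarded, so the values of both come from the remaining sequence and are uncertain as levels. On the opposite strand, Gm20481 overlaps 19.0% of the exon length of Hspa1a. Hsp90aa1 shares 42.8% of its windows with other genes, Hspa8 33.1%, Hspd1 29.6%, Dnajb6 19.1% and Dnaja1 18.4%, and their levels are uncertain in the same way. In the RefSeq promoter table (GRCm38.p6), the 250 bases before the starts of Hspa1a and Hspa1b were identical at 247 positions. A heat shock element, the HSF1 binding sequence, was searched on both strands as 3 alternating units (GAA, TTC and GAA, or TTC, GAA and TTC, each parted by any 2 bases) and as 2 units (GAANNTTC or TTCNNGAA), the latter lying within the former. Stretches around matches are printed from the 4 members that fell with HFD in WT, with 2 units, and from Dnajb6, with 3 units. The match is in capitals and each stretch is written 5′ to 3′ on the strand of its gene. Those of Hspa1a and Hspa1b lie outside annotated exons, and the 3 others overlap an annotated exon of their own gene.
Hspa1a, chr17:34972228-34972285, minus strand: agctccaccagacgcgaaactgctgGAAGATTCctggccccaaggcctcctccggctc
Hspa1b, chr17:34959310-34959367, minus strand: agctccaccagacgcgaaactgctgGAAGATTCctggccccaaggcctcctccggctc
Hsph1, chr5:149636354-149636377, minus strand: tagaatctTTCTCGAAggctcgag
Dnaja1, chr4:40722336-40722359, plus strand: agcctctaGAAAATTCtacgaggc
Dnajb6, chr5:29735844-29735872, plus strand: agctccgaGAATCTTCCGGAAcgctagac
The stretches of Hspa1a and Hspa1b are the same at all 58 positions. Of the 82 member symbols, 65 were in the promoter table of 27025 symbols. The 3-unit element was in 3 of the 65 (4.615%; Dnajb6, Hspd1 and Hspe1), beside 0.514% of all symbols. Hspd1 and Hspe1 hold it in the same bases, between the starts that the promoter table gives for them, so these 3 genes stand for 2 places in the genome. By the gene coordinates of the deposited values, Hspd1 and Hspe1 overlap and these bases lie within Hspd1. The 2-unit element, added after the data were seen, was in 14 of the 65 (21.538%), beside 14.549% of all. The TEAD motif CATTCC, which TEAD factors bind together with YAP or TAZ, was in 8 of the 65 (12.308%), beside 14.357% of all. Of the 7 members called lower in KO on HFD also with WT HFD as 1 sample, Dnajb2 was among these 8.

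In KO adipocytes the diet made no difference that passed. None of the 79 members was called between HFD and SD by limma, beside 1.07% of all genes, and 5 had an unadjusted p under 0.05, as did 2905 of the 18800 genes. The member median was -0.094, beside 0.0342 for all genes. Hspb7, at 130 and 150 on SD and 150 and 131 on HFD, differed by 0.01 with a 95% interval from -0.79 to 0.82, so a rise of the size seen in WT lay outside it. Hspa1a differed by -0.05 and Hspa1b by 0.02, with overlapping libraries. Without the 1st KO HFD library 3 members were called (3.8%), beside 3.93% of all genes.

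The difference between the diet effects of the 2 genotypes was tested as an interaction. It was called for 11 of the 79 members, 9 lower and 2 higher, beside 8.73% of all genes called lower and 8.69% higher (17.4% in all). For genes averaging 50 or more, 15.2% of 66 members were lower and 3.03% higher, beside 15.2% and 12.4% of all, so the lower share equalled the background. Of the cell type markers, 8 of 10 for adipocytes were lower in the interaction (median -1.41), while 10 of 12 for macrophages (1.85) and 7 of 8 for fibroblasts and progenitors (1.86) were higher. With the WT HFD libraries averaged these counts were 0, 6 and 3, and the part of these cell types in the members' interaction was not tested. The diet effect in KO was more negative than in WT for Hspb7 (-3.16, adjusted p = 0.0043), Hspa12a (-1.73, adjusted p = 0.011), Hspb8 (-1.56, adjusted p = 0.00707), Dnajc15, Hspa4l, Hspd1, Dnajb12, Dnajb4 and Dnajb14. It was more positive for Hspa1a (1.32, adjusted p = 0.00611) and Hspa1b (1.07, adjusted p = 0.0228). With WT HFD as 1 sample, Hspb7 (adjusted p = 0.0381) and Hspa1a (adjusted p = 0.0483) remained called, beside 0.787% of all genes lower and 1.96% higher. Scaled to the same total, 3 members were lower (Hspb7, Hspb8 and Hspa12a) and 6 higher, beside 3.29% and 13.9% of all genes. Leaving out any single library moved the count by over 1.5 times, to 2 without the 1st WT SD or 2nd WT HFD library (beside 2.82% and 4.03% of all genes), 3 without the 1st WT HFD library (5.43%) and 7 without the 2nd WT SD or 2nd KO HFD library (8.51% and 7.51%). It was 5 and 21 without the 2nd or 1st KO SD library (6.33% and 26.6% of the members, beside 7.47% and 22.6% of all genes), and 20 without the 1st KO HFD library (25.3%, beside 21.7%).

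Hspd1, which encodes HSP60, was called in the interaction only. It gave 1609 and 1642 in WT on SD, 2378 and 2462 in WT on HFD, 2112 and 2608 in KO on SD, and 1898 and 1647 in KO on HFD. The WT SD and KO HFD libraries were low and the other 4 high, so the diet difference ran upward in WT and downward in KO (-0.98, adjusted p = 0.0132, and 0.075 with WT HFD as 1 sample). Its partner Hspe1 lies head to head with it on chromosome 1 and shares 112 bases with it, and ranged from 199 to 341 with no call. Hspa9 of the same organelle gave 6562 and 6333 in WT on SD, 8389 and 8386 in WT on HFD, 7141 and 9108 in KO on SD and 7639 and 6336 in KO on HFD. Its interaction of -0.59 did not pass (adjusted p = 0.0941).

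The rank of the libraries was counted for each member. Both WT HFD libraries were above all 6 others for 31 of the 79 members tested (39.2%), beside 20.3% of all genes tested, and for 10 members (12.7%) beside 7.88% after scaling to the same total. Both WT SD libraries were above all others for 8 members (10.1%), beside 5.91%, and for 11 (13.9%) beside 9.33% after scaling. Hspa1a, Hspa1b, Hsph1, Dnaja1, Dnajb5 and Hsf1 belonged to this latter set under both scalings. Hsf1 itself gave 448 and 477 in WT on SD, 337 and 286 in WT on HFD, 324 and 377 in KO on SD and 358 and 312 in KO on HFD. Its change with HFD in WT was -0.57 and missed the threshold (adjusted p = 0.0652), whereas after scaling to the same total it was -0.99 and called lower (adjusted p = 0.00453).

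Hsp90ab1 and Hspa8, which led the levels, were not called in any comparison of the deposited values. Hsp90ab1 gave 16371 and 15581 in WT on SD, 16531 and 15635 in WT on HFD, 15209 and 15759 in KO on SD, and 15591 and 15334 in KO on HFD. On HFD the genotypes differed by -0.06, with a 95% interval from -0.38 to 0.27, and by 0.33 on the scaled values. Hsp90aa1, the inducible HSP90, ranged from 2450 to 3293 and differed by -0.00 between the genotypes on HFD (95% interval from -0.33 to 0.32). Hspa8 gave 15565 and 14938 in WT and 11897 and 14141 in KO on HFD, a difference of -0.23 with a 95% interval from -0.58 to 0.11. Bag3 ranged from 3886 to 4654 over all libraries, Hspa2, an HSP70 best known from the testis, from 754 to 1007, and Hspa4 from 2676 to 4076, and none of the 3 was called. After scaling to the same total, Hsp90aa1 and Bag3 were called lower on HFD than on SD in WT, with log2 fold changes of -0.63 each (adjusted p = 0.0184 and 0.00986). A p that misses the threshold does not show equal levels, and the intervals leave room for changes of up to about these bounds.

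Lists of related genes put the members beside the rest of the pathway. Of 13 heat-inducible genes, all members themselves and with the mitochondrial Hspd1 and Hspe1 among them, 3 fell and none rose between the genotypes on HFD (Dnajb1, Dnajb4 and Hspb1), 3 fell on SD, and 4 fell with HFD in WT, beside 15.1%, 1.5% and 9.22% of all genes called lower. These counts were 1, 2 and 1 with WT HFD as 1 sample, beside 8.14%, 0.84% and 1.75% of all genes called lower. After scaling to the same total they were 1, 3 and 6, beside 7.27%, 285 of 18800 genes and 19.0%. On HFD, 1 was then higher in KO, beside 24.6% of all genes. Of 9 ER DNAJ proteins, 3 fell between the genotypes on HFD and 3 rose with HFD in WT, beside 15.1% of all genes lower and 8.74% higher. None of these calls remained with WT HFD as 1 sample or after scaling to the same total. The mitochondrial list of 7 held 1 call in each of these comparisons, Dnajc15, which was lost under both settings as well. Among 18 HSP90 and HSP70 partners outside the family, 3 fell between the genotypes on HFD: St13, which slows HSP70 release (-0.97, adjusted p = 0.0014), Chordc1 (-0.88, adjusted p = 0.0102) and Cdc37l1 (-0.71, adjusted p = 0.0195). This share lay near the 15.1% of all genes called lower, and 1 of the 18 was lower with WT HFD as 1 sample and none after scaling to the same total. Of 13 subunits of the TRiC chaperonin and prefoldin, which fold actin and tubulin, only Pfdn1 fell (-0.70, adjusted p = 0.0258) in that comparison, a call lost under both of these settings. Of the 3 ER chaperones left out by the rule, Dnajb9 was higher in KO on HFD (0.86, adjusted p = 0.00059). Hspa5 and Hsp90b1 were not called in that comparison on the deposited values. The median of the 3 was 0.368 between the genotypes on HFD, beside -0.38 for the members. After scaling to the same total, 2 of the 3 were higher and the medians were 0.753 and 0.006. In the interaction on the deposited values, Hspa5 (0.96, adjusted p = 0.0271) and Dnajb9 (0.73, adjusted p = 0.0285) were higher, beside 8.69% of all genes. Neither of these calls remained with WT HFD as 1 sample.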

How the data were processed

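RNA from isolated white adipocytes was sequenced in 4 groups of 2 libraries. Per the labels and the study's methods, the authors aligned single-end reads to GRCm38 with STAR 2.5.2b, counted exonic reads with featureCounts 1.5.1 without multi-mapping or multi-gene reads, and used DESeq2 1.14.1. Whether counting used strand was not given in the sources used here, so reads of overlapping genes on opposite strands may be mixed. The deposited values are treated as a score: counts that the authors scaled by a library-wide size factor and then rounded, so no count test was run. The step between low values put 1 read at 0.795 to 1.13 normalized counts. Reads carry no molecular identifiers, and a value of 0 allows up to 3 counts.

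Here, limma 3.58.1 in R 4.3.3 fitted log2(value + 1) for 18800 genes with a mean of at least 5 (4 group means, 4 residual and 8.59 prior degrees of freedom). Adjusted p-values are limma's with Benjamini-Hochberg adjustment over all genes tested, and fold changes on this scale understate those of low genes. No exact test of 2 against 2 libraries can go below p = 0.333. The fit was tested on simulated data. The members and gene lists were chosen with earlier results of these data known.

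Members named with values were 21 chosen by name and, per comparison, the 5 largest calls in each direction with a mean of at least 50 and no overlap; other calls are named only, and those with values beside a list are its largest. Dnajb2, Hspa12b, Dnajb12, Dnajb14 and Dnajb5 were added after their values were seen. Alternatives were pseudocounts of 0.1 and 8, no filter or a mean of at least 50, the same total per library, WT HFD as 1 sample, only the groups compared, the replicate block, and leaving out each library; a crossed block and the 2-unit element were added after seeing the data. Python 3.11.15, pandas 2.3.3, numpy 2.4.6, scipy 1.17.1 and matplotlib 3.10.9 made tables and plots. Lengths, overlaps and shared windows came from GENCODE vM21 and promoters from RefSeq (GRCm38.p6).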

Additional observations from a re-analysis of the deposited data

Results flagged for a closer look

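For 11 members the effect of HFD differed between the genotypes by limma's interaction term. This was 13.9% of the 79 tested, beside 17.4% of all genes. Among genes averaging 50 or more, 15.2% of the members and 15.2% of all genes were lower. Values are on the log2 scale, negative where the diet effect was lower in KO than in WT. The small heat shock proteins Hspb7 (-3.16) and Hspb8 (-1.56), the HSP70-type Hspa12a (-1.73) and Hspa4l (-1.09), mitochondrial Dnajc15 (-1.21) and Hspd1 (-0.98), and the DNAJ proteins Dnajb12 (-0.79), Dnajb4 (-0.76) and Dnajb14 (-0.75) were lower, beside 8.73% of all genes. Hspa1a (1.32) and Hspa1b (1.07) were higher, beside 8.69% of all genes. Hspb7 and Hspa1a were called under all 7 alternatives and without each of the 8 libraries in turn. Dnajb4 and Dnajb14, by contrast, were called under 2 of the 7 alternatives and in 2 of the 8 fits that left out a library.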

How the results depend on the processing

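With WT HFD as 1 sample, the members called were 7 between genotypes on HFD, 2 between genotypes on SD, 2 between diets in WT and 2 in the interaction, in place of 23, 5, 16 and 11. With no filter on low values they were 2 on SD, 9 between diets in WT and 2 in the interaction, beside 438, 1701 and 721 of 30387 genes. With the filter, 886, 3377 and 3274 of 18800 genes were called. Scaling to the same total gave 13 between genotypes on HFD and medians of 0.006 there, -0.026 between diets in WT and -0.078 in the interaction. A fit of only the groups compared gave 2 on SD, beside 461 of 18800 genes. Leaving out single libraries gave 10 to 23 on HFD, 0 to 4 on SD, 2 to 8 between diets in WT, 0 to 3 between diets in KO and 2 to 21 in the interaction. The replicate numbers did not pair the samples (correlations of deviations from -0.3 to 0.108). The replicate block gave 2 on SD, beside 720 of 18800 genes, and changed no other member count by over 1.5 times. With the KO HFD numbers crossed, 1 member was called between diets in KO. Beside it, 700 of 18800 genes were called in that fit, and 112 in the block with the numbers as labelled. Single members were followed for 77 results, those called and those of members chosen by name that were called under an alternative. Of their 987 values under alternatives, 2 turned direction: Hspa4 between genotypes on HFD to 0.067 with the same total, and Hspa12a between diets in KO, from -0.43, to 0.044 without the 2nd KO HFD library (-0.912 without the 1st). Another 691 kept direction and side of the threshold, 268 lost it and 26 gained it. The cause was not tested. The 2 libraries per group and the lower noise between the WT HFD libraries limit every comparison.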
